A study of Sus scrofa with 30 samples.

Results

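The ZNF genes are the genes that carry the systematic symbol of the zinc finger family, the letters ZNF and a number, and they were followed here through the days in which the pig blastocyst grows from a small sphere into a long filament. They were chosen by symbol alone: every gene of the table of all embryos whose pig NCBI symbol is ZNF, a number and at most 1 further letter. The annotation of Sscrofa11.1, the assembly used by the study, holds 258 such symbols, and 221 of them were among the 13103 genes of the table. The other 37 are not analysed here, and since the table holds genes that passed the authors' filter on low counts, the 221 are ZNF genes with a measurable level in some embryos. A symbol does not prove a zinc finger: ZNF185 encodes an actin-associated LIM-domain protein, and ZNF532 is annotated as a long non-coding RNA.

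RNA was sequenced from 30 single whole embryos of German Landrace × Pietrain crossbred gilts, 10 each on Days 8, 10 and 12 after insemination, 5 of them female and 5 male. All gilts had been synchronised with altrenogest, PMSG and human chorionic gonadotropin and inseminated with sperm of 1 Pietrain boar, and no group received a further treatment. The comparisons were between days with the sexes pooled, and between the sexes within a day. Each embryo held trophectoderm together with the embryonic disc, embryos of 1 gilt are littermates, and every gilt gave embryos of 1 day only. The labels do not name the gilt of each embryo, so littermates could not be modelled, and day and gilt cannot be told apart. The p-values measure the spread between embryos, some of which share a mother.

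Zinc finger proteins of the C2H2 type read DNA through arrays of small zinc-binding loops, and most ZNF genes in mammals encode such proteins. Many also carry a KRAB domain, which recruits the co-repressor TRIM28 and through it the methyltransferase SETDB1, so that the bound site is packed into silent chromatin. KRAB zinc finger genes lie in tandem clusters that grew by duplication, and their proteins are known for silencing transposable elements and for protecting imprinted DNA methylation in the early embryo.

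Total counts ran from 6068212 to 34002508 per embryo. All 6 trophectoderm markers examined (CDX2, GATA3, GATA2, KRT8, KRT18, TFAP2C) were present. On Days 8, 10 and 12 their summed level had medians of 23664, 42265 and 13108 CPM. CPM are read counts scaled to the TMM-adjusted total of each library. Most of the sum was KRT8 and KRT18, with medians of 25073 and 16491 CPM on Day 10. The medians of KRT8, KRT18 and CDX2 were highest on Day 10, while those of GATA3 and GATA2 were lowest on that day. TFAP2C fell in both intervals by its medians. The part of cell composition in the ZNF levels was not tested. The epiblast markers POU5F1, NANOG, SOX2 and LIN28A summed to a median of 158 CPM on Day 8, 128 on Day 10 and 43.8 on Day 12, when SOX2 had a median of 0. The hypoblast markers GATA6, GATA4, SOX17 and PDGFRA summed to medians of 279, 160 and 384 CPM. Of the 10 genes taken as maternal blood and uterine markers, 5 were listed, and their sum had medians of 0.833, 3.82 and 18.3 CPM. The Day 12 female embryos d12_f_245 and d12_f_271 stood apart over all genes: their mean distances to the other Day 12 embryos were 116 and 101 on the log2(CPM + 0.5) scale, against 71.2 to 89.4 for the other 8. The former was also the smallest library, and counts that rest on Day 12 are given below with and without both.

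ZNF genes had low read counts. The mean level over 30 embryos ran from 0.525 to 233 CPM with a median of 7.44 CPM, against a median of 21.3 CPM over all genes. CPM values carry no correction for transcript length, so levels are compared between days for 1 gene and not between genes. The within-day SD of log2(CPM + 0.5) had a median of 0.309 for ZNF genes and 0.331 for all genes. Together the 221 genes took 3405 ± 108.9 CPM on Day 8 (SD, n = 10 embryos), 2899 ± 147 on Day 10 and 3107 ± 212 on Day 12. The lowest Day 8 embryo, at 3259 CPM, lay above the highest Day 10 embryo, at 3110 CPM, while Day 12 embryos ran from 2814 to 3426 CPM and overlapped both other days. As a share of counts without TMM factors, Day 8 (0.326% to 0.393%) also lay above Day 10 (0.223% to 0.311%). In whole embryos, fewer cells of a type and less RNA of a gene per cell cannot be told apart.

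**Figure D1:**
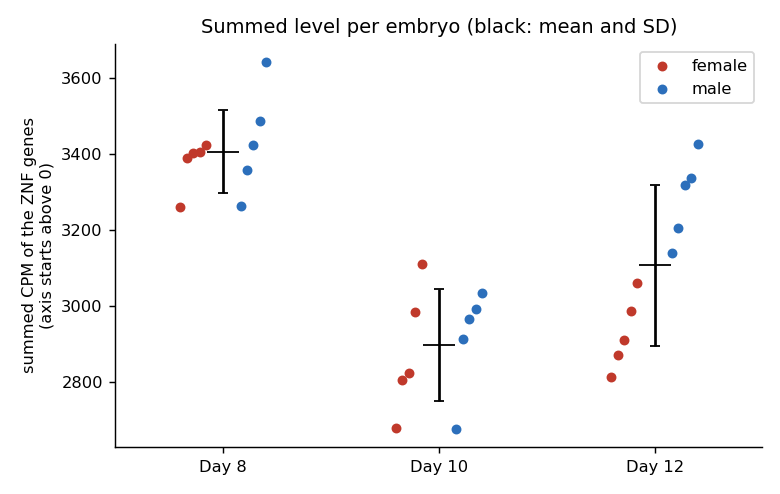
Summed CPM of the 221 ZNF genes (vertical axis, which starts above 0) in each embryo on Days 8, 10 and 12. Red points are female and blue points male embryos, and the black bar shows the mean and SD of 10 embryos; Day 8 lies above Day 10 without overlap, and on Day 12 the 5 female embryos (2814 to 3060) lie below the 5 male embryos (3139 to 3426) on this TMM scale but overlap them as a share of counts without TMM factors.

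Between Day 8 and Day 10 the common movement of ZNF genes was small and downward. A gene was called when its FDR was under 0.001 in edgeR's quasi-likelihood test and its log2 fold change was beyond 1, the thresholds of the study. By that rule 5 ZNF genes rose, where 9.88% of all genes tested did, which is 2.26% of the ZNF genes. A further 10 fell, 4.52% of them beside 4.20% of all genes. The median log2 fold change was -0.22 for ZNF genes and 0.03 for all genes. At an FDR under 0.05 with no minimum fold change, 25 ZNF genes were higher (11.3%, against 29.4% of all genes) and 87 were lower (39.4%, against 26.7%).

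Between Day 10 and Day 12 the direction turned. Here 28 ZNF genes rose (12.7%, against 14.9% of all genes) and 3 fell (1.36%, against 8.39%). The median log2 fold change was 0.17 for ZNF genes and 0.04 for all genes. At an FDR under 0.05 alone, 79 were higher (35.7%, against 32.6%) and 27 were lower (12.2%, against 27.1%). Without d12_f_245 and d12_f_271, 22 rose and 2 fell. Both intervals use the same Day 10 embryos, so a low Day 10 value enters both with opposite sign, and the values of the intervals are given side by side only.

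Over the whole span from Day 8 to Day 12, 32 ZNF genes rose (14.5%, against 22.0% of all genes) and 18 fell (8.14%, against 10.4%), and the median log2 fold change was -0.06 against 0.09 over all genes. At an FDR under 0.05 alone, 68 were higher (30.8%, against 40.1%) and 75 were lower (33.9%, against 33.3%). Without the same 2 embryos, 23 rose and 16 fell. Of the 221 genes, 162 were called in none of the 3 comparisons, for which no share over all genes is given here. In the single comparisons, in the order given, 6.79%, 14% and 22.6% of ZNF genes were called, against 14.1%, 23.3% and 32.5% of all genes. A net log2 fold change within 0.5 of 0 was found in 114, which is 51.6% of ZNF genes and 39.4% of all genes.

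Genes of low level differ from highly expressed genes in how often they are called, so ZNF genes were also set beside other genes of similar level. Most of them, 143, had a mean level of 2 to 20 CPM. From Day 8 to Day 10, 4 of these rose (2.8%) and 6 fell (4.2%), beside 546 (13.6%) and 196 (4.88%) of 4017 other genes in that range. From Day 10 to Day 12, 20 rose (14%) and 1 fell (0.699%), beside 21.1% and 7.39% of the others. From Day 8 to Day 12, 24 rose (16.8%) and 10 fell (6.99%), beside 1224 (30.5%) and 346 (8.61%). The share of ZNF genes that rose was below that of other genes in each of the 3 comparisons, and the share that fell differed most from Day 10 to Day 12. Between 5 and 10 CPM, where 59 ZNF genes lay, 23.7% rose over the whole span against 33.1% of other genes. Outside that range the shares went both ways. Between 1 and 2 CPM, 8 of 28 ZNF genes rose from Day 10 to Day 12 (28.6%, against 26.8% of other genes), and above 50 CPM 2 of 12 rose over the whole span (16.7%, against 10.5%). Between 20 and 50 CPM none of 30 rose over that span and 3 fell, against 13.3% and 8.78% of other genes. These shares describe the list and were not tested.

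**Figure D2:**
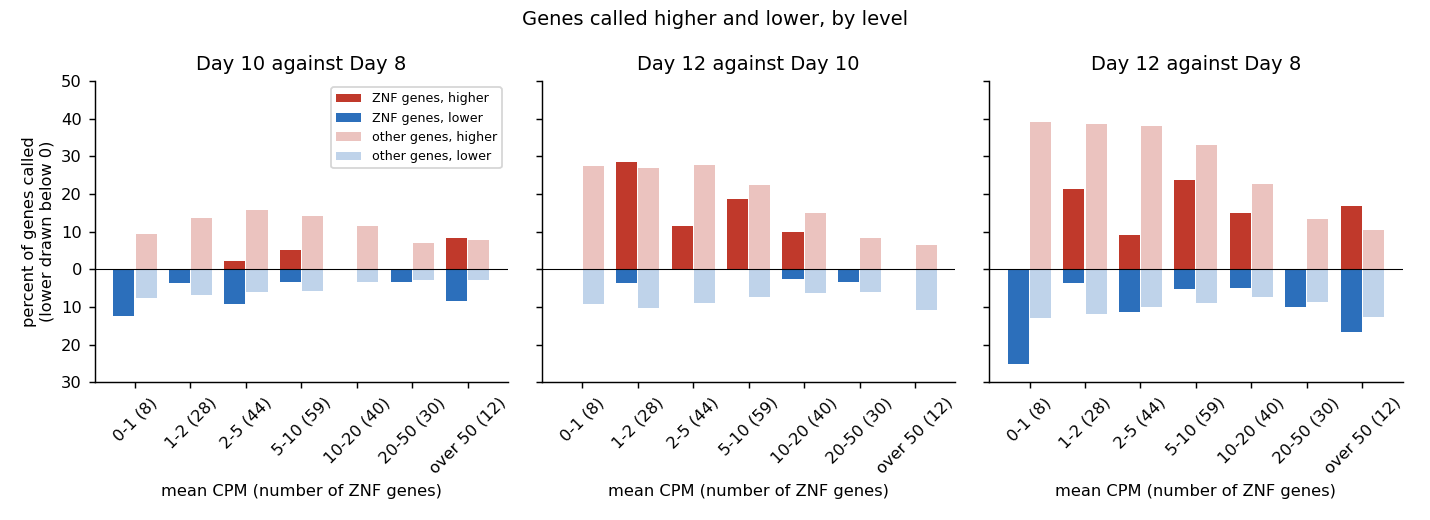
Percent of genes called higher (red, upward) and lower (blue, downward) in bins of mean CPM over 30 embryos, for ZNF genes (solid, their number under each bin) and all other genes (pale), in the 3 comparisons. In the bins from 2 to 20 CPM the solid red bars are shorter than the pale ones in every panel; the 1 to 2 CPM bin of the second panel and the last bin of the outer panels go the other way, and the first and last bins hold 8 and 12 ZNF genes.

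The largest net fall among the 221 was that of ZNF703 (NCBI gene 100525011, chromosome 15:48692316-48696639), which encodes a transcriptional co-repressor of the NET family rather than a long-array zinc finger protein. Its level in the 10 Day 8 embryos ran from 36.2 to 64.4 CPM with a median of 44.7. On Day 10 it ran from 6.47 to 13.9 CPM with a median of 12.0, and on Day 12 from 1.76 to 8.04 CPM with a median of 3.02. Every Day 8 embryo lay above every later embryo, and Days 10 and 12 overlapped only through embryo d12_f_271, which held the 8.04 CPM. It was called lower in both intervals, with log2 fold changes of -2.14 ± 0.20 (SE, adjusted p = 3.08e-10, quasi-likelihood test) and -1.58 ± 0.20 (adjusted p = 7.34e-08). No other ZNF gene was called lower in both intervals. Over the whole span it fell by 3.71 on the log2 scale, which is 13.1-fold.

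ZNF641 (NCBI gene 100512413, chromosome 5:78707843-78718277) fell later. It stood at 9.55 to 18.9 CPM on Day 8 (median 13.5) and at 11.2 to 26.0 CPM on Day 10 (median 18.7). On Day 12 all embryos were at 1.12 to 4.34 CPM (median 1.96), below every embryo of both earlier days. From Day 10 to Day 12 it changed by -3.16 ± 0.19 (adjusted p = 4.71e-15), an 8.95-fold fall. From Day 8 to Day 10 its change of 0.43 ± 0.17 did not pass (adjusted p = 0.0314).

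ZNF296, a gene of pluripotent cells, and ZNF704 fell early and then rose. ZNF296 had a median of 5.69 CPM on Day 8 (3.45 to 8.93), 0.935 on Day 10 (0.397 to 1.87) and 2.001 on Day 12 (1.36 to 5.22). Days 8 and 10 did not overlap, and the Day 12 embryos lay between them and overlapped both. Its log2 fold changes were -2.43 ± 0.28 (adjusted p = 1.48e-08) and then 1.14 ± 0.27 (adjusted p = 0.000616). The later rise of ZNF296 was lost without d12_f_245 and d12_f_271, at 0.86 ± 0.26 (adjusted p = 0.00455), and was kept in 19 of 30 fits that each left out 1 embryo. ZNF704 had medians of 2.87, 0.4664 and 1.84 CPM, with changes of -2.29 ± 0.28 (adjusted p = 5.86e-08) and 1.58 ± 0.28 (adjusted p = 1.45e-05). ZNF662 followed the same course, from 4.59 to 1.78 and back to 5.31 CPM by the medians, with changes of -1.19 ± 0.25 and 1.23 ± 0.25. These 3 were the ZNF genes called in opposite directions in the consecutive intervals. The epiblast markers given above were lower on Day 12 than on Day 8, and their part in the levels of ZNF296 was not tested.

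ZNF827, whose protein binds the NuRD complex, was at 0.845 to 2.47 CPM on Day 8 and at 0.136 to 0.534 CPM on Day 10, without overlap. It changed by -2.18 ± 0.30 (adjusted p = 4.38e-07) and stayed low on Day 12, at a median of 0.378 CPM. ZNF319 changed by -1.35 ± 0.19, with every Day 10 embryo (1.41 to 3.04 CPM) below every Day 8 embryo (4.27 to 7.03 CPM). The KRAB zinc finger gene ZNF583 changed by -1.30 ± 0.15, from a median of 9.48 to 3.60 CPM and again without overlap. ZNF134 changed by -1.29 ± 0.19, and ZNF135 and ZNF304, which lie near it, fell by 1.16 and 1.03 on the log2 scale.

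The 5 rises from Day 8 to Day 10 were ZNF608, ZNF688, ZNF316, ZNF428 and ZNF664. ZNF608 went from a median of 3.37 CPM (1.91 to 5.03) to 9.94 CPM (7.95 to 14.2), without overlap, a change of 1.61 ± 0.21 (adjusted p = 1.62e-07). ZNF688 went from 0.832 to 2.27 CPM by the medians (1.46 ± 0.20, adjusted p = 4.32e-07). ZNF316 went from 2.67 to 6.69 CPM (1.35 ± 0.18, adjusted p = 3.42e-07). Neither overlapped between the days. ZNF664 had the highest CPM of the 5, with a median of 44.8 CPM on Day 8 (36.7 to 59.3) and 104 on Day 10 (79.2 to 120), a change of 1.13 ± 0.14 (adjusted p = 3.96e-08). ZNF428 rose in both intervals, by 1.31 ± 0.20 and 1.01 ± 0.19, from 2.19 through 5.94 to 10.3 CPM by the medians. Its second rise was lost in 7 of 30 fits that left out 1 embryo each, with estimates from 0.87 to 1.08 over the 30 fits, and was lost without d12_f_245 and d12_f_271 (0.77 ± 0.17, adjusted p = 0.000348).

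**Figure D3:**
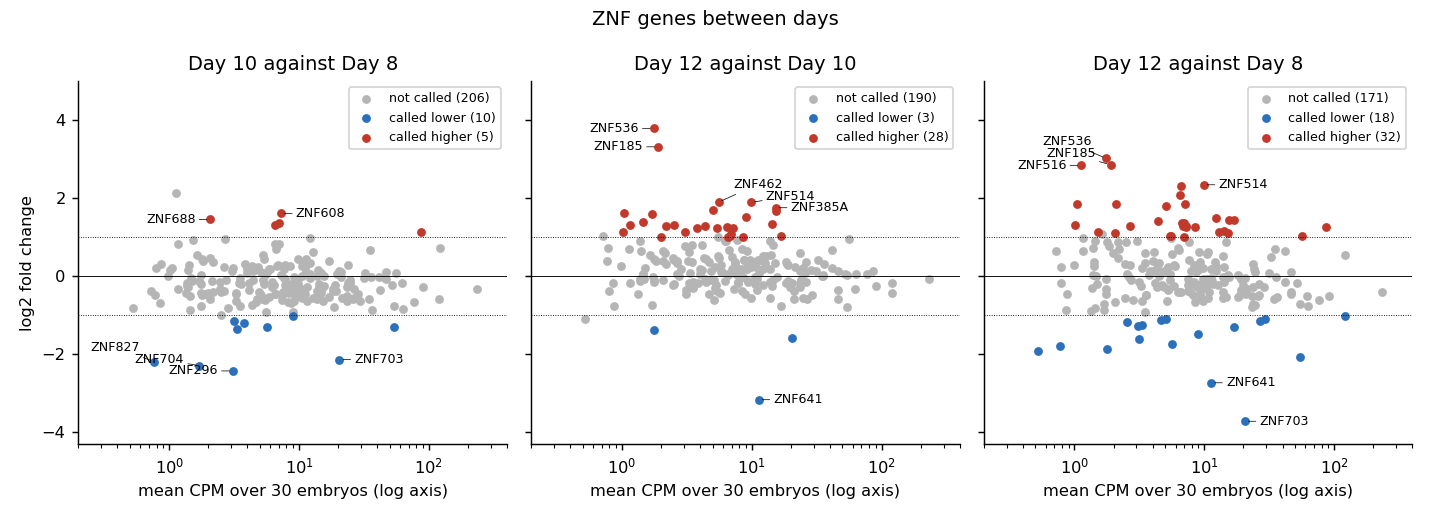
Log2 fold change of each of the 221 ZNF genes (vertical axis) against its mean CPM over 30 embryos (horizontal log axis) in the 3 comparisons. Red genes were called higher, blue genes lower and grey genes not called, with their numbers in the legend (5 and 10, 28 and 3, 32 and 18), and the 6 largest called changes of each panel are named.

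The largest rises of the later interval started from traces. ZNF536 (NCBI gene 100738519, chromosome 6:40291360-40773616), a repressor known from neuronal differentiation, stood at 0.130 to 0.490 CPM on Day 10, between 3 and 11 reads per embryo. On Day 12 it ran from 1.14 to 12.1 CPM with a median of 3.79, above every Day 10 embryo. Its spread among Day 12 embryos was wide, with d12_m_275 at 12.1 CPM and d12_f_271 at 1.14. The change was 3.79 ± 0.41 (adjusted p = 2.03e-09). The X-linked ZNF185 (NCBI gene 100152632, chromosome X:123942981-123988102) went from 0.0979 to 0.723 CPM on Day 10 to 2.21 to 10.2 CPM on Day 12, again without overlap, a change of 3.31 ± 0.31 (adjusted p = 1.18e-10).

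ZNF514 and ZNF697 had the smallest standard errors among the 8 largest rises. ZNF514 (NCBI gene 100521442, chromosome 3:46109918-46123303) held medians of 3.91, 5.01 and 17.9 CPM on Days 8, 10 and 12, and the lowest Day 12 embryo, at 14.5 CPM, lay above the highest Day 10 embryo, at 7.35. It changed by 1.89 ± 0.14 (adjusted p = 6.57e-13) from Day 10. ZNF697 (NCBI gene 100154558, chromosome 4:101520252-101552266) held 9.68, 8.64 and 26.6 CPM, its lowest Day 12 embryo at 20.3 CPM against a highest earlier embryo at 14.2. It changed by 1.68 ± 0.12 (adjusted p = 4.12e-13).

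ZNF462, a chromatin-associated protein needed in pluripotent cells, went from a median of 2.38 CPM on Day 10 to 8.81 on Day 12 (1.90 ± 0.24, adjusted p = 3.22e-08). Its Day 12 embryos ran from 2.94 to 16.2 CPM, and the lowest, d12_f_271, lay within the Day 10 range. ZNF385A, an RNA-binding partner of p53, went from 8.08 to 26.6 CPM by the medians (1.75 ± 0.23, adjusted p = 1.23e-07), with Day 12 embryos between 9.60 and 53.7 CPM. ZNF629 changed by 1.69 ± 0.19 (adjusted p = 6.37e-09) and ZNF672 by 1.63 ± 0.26 (adjusted p = 3.23e-06), and in both the lowest Day 12 embryo reached into the Day 10 range.

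The 20 other rises of this interval were of at most 1.58 on the log2 scale. They included ZNF76, a promoter activator, at 1.25 ± 0.21, and ZNF644, a partner of the H3K9 methyltransferases EHMT1 and EHMT2, at 1.07 ± 0.15. Rises near the threshold depended on single embryos: ZNF771 (1.14) was called in 18 and ZNF821 in 22 of 30 fits with 1 embryo left out, and both were lost without d12_f_245 and d12_f_271. The third gene that fell, after ZNF641 and ZNF703, was the KRAB zinc finger gene ZNF471 at -1.37 ± 0.34, called in 16 of the 30 fits and lost without these 2 embryos (-1.15 ± 0.31, adjusted p = 0.00197).

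**Figure D4:**
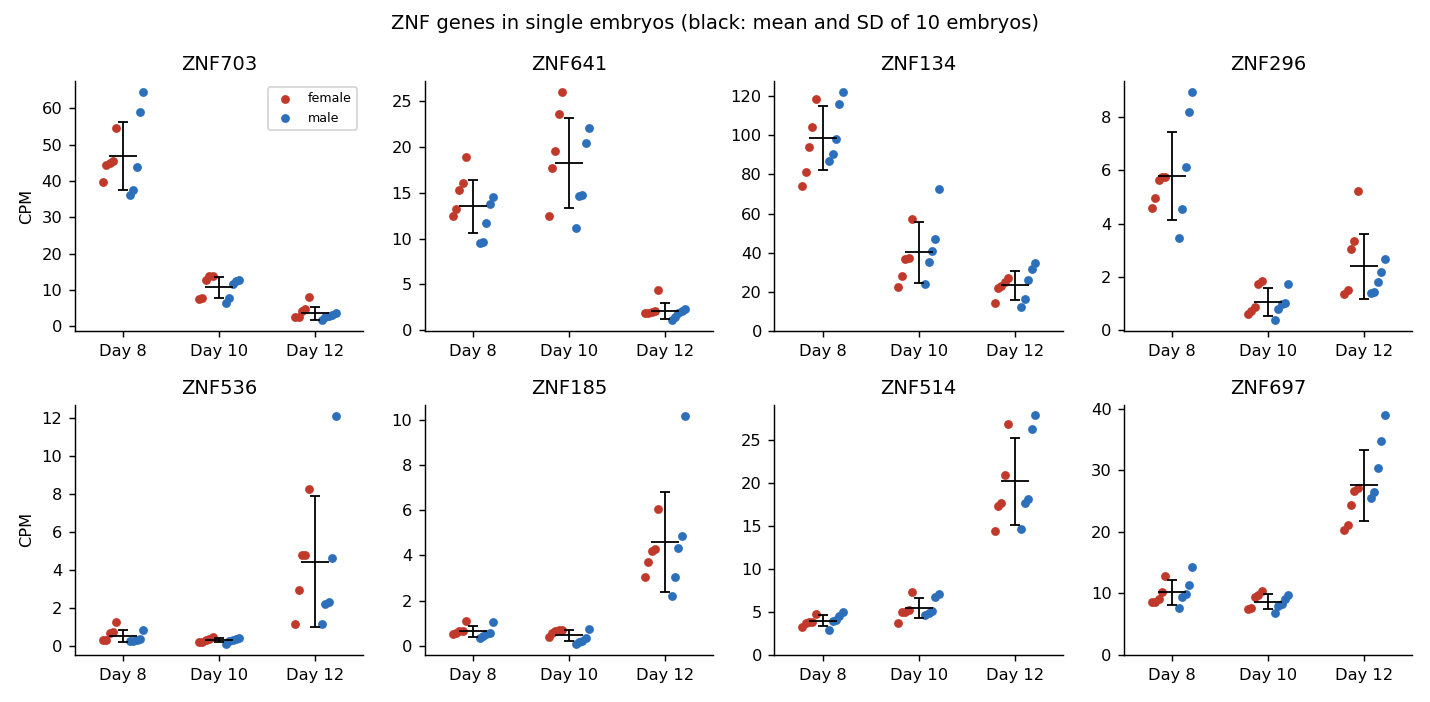
CPM (vertical axes, from 0) of 8 ZNF genes in each embryo on Days 8, 10 and 12, female embryos in red and male embryos in blue, with the mean and SD of 10 embryos in black. ZNF703, ZNF641 and ZNF134 fell, ZNF296 fell and partly returned, and ZNF536, ZNF185, ZNF514 and ZNF697 rose on Day 12, where every embryo lay above all Day 10 embryos.

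Some changes passed only over the whole span. ZNF516 rose from a median of 0.124 CPM on Day 8 to 1.44 on Day 12 (2.84 ± 0.66, adjusted p = 0.000294), but single embryos stood far above the rest on each day, and without d12_f_245 and d12_f_271 it was not called (2.49 ± 0.66, adjusted p = 0.00121). ZNF416 fell from a median of 0.901 CPM (0.494 to 1.40) to 0.282 CPM (0.0538 to 0.328), without overlap, a change of -1.91 ± 0.28 (adjusted p = 5.30e-07). ZNF143, a promoter activator of housekeeping genes, fell from 38.6 to 17.6 CPM by the medians (-1.14 ± 0.12). ZNF451, a SUMO ligase, fell from 40.6 to 20.8 CPM (-1.11 ± 0.14), a call that was lost without these 2 embryos (-0.95 ± 0.10).

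The 4 ZNF genes with the highest mean CPM gave 1 call, that of ZNF106 over the whole span. ZNF207, a spindle and kinetochore protein, held medians of 274, 220 and 225 CPM and was called in no comparison (net change -0.39 ± 0.09). ZNF638, an RNA-binding protein with a role in silencing unintegrated DNA, held 87.1, 133.4 and 128 CPM (net 0.55 ± 0.15), and ZNF706 held 104, 88.8 and 70.0 CPM (net -0.52 ± 0.09). ZNF106, an RNA-binding protein, had medians of 167, 109.4 and 97.2 CPM and was called lower over the whole span (-1.03 ± 0.18, adjusted p = 6.13e-06). On Day 12 its level was 28.9 to 51.3 CPM in the female embryos d12_f_245, d12_f_271 and d12_f_289 and 84.8 to 110 CPM in the other 7, and without d12_f_245 and d12_f_271 it was not called (-0.82 ± 0.11).

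Position in the genome was not used to choose the genes. Grouping ZNF genes that lay within 500 kb of each other gave 19 neighbourhoods of at least 3 members, which held 99 of the 220 genes placed on chromosomes, and 8 of the 19 were on chromosome 6, where 68 ZNF genes lay. Of 45 pairs of ZNF genes that were direct neighbours among annotated protein-coding genes, none was called in opposite directions in any comparison. Only 15, 31 and 50 of the 221 ZNF genes were called in the 3 comparisons, so few such pairs could arise. Pairs of other genes were not counted. In 18 of the 19 neighbourhoods, net log2 fold changes of both signs were present. The net median of all ZNF genes was -0.06, so both signs are common in any group of them. Neither count was tested. The 12 genes from ZNF146 to ZNF570 on chromosome 6:45520885-46468679 had net log2 fold changes from -0.92 to 1.43, with 1 rise, ZNF260, and no fall.

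A one-sided group of calls lay in a stretch of chromosome 6, at 61740677-63066130, with the 9 ZNF genes ZNF304, ZNF416, ZNF134, ZNF671, ZNF135, ZNF329, ZNF8, ZNF584 and ZNF446. Over the whole span 5 of them fell and none rose, where 10.4% and 22.0% of all genes did, with a median log2 fold change of -1.12. Together they took 146 to 206 CPM on Day 8, 65.8 to 131 on Day 10 and 54.0 to 87.4 on Day 12, so that Day 8 lay above both later days without overlap. The medians of this sum were 179, 92.3 and 72.3 CPM, and much of it was ZNF134. ZNF134, with the highest CPM of the 9, had a median of 96.1 CPM on Day 8 (74.1 to 122), 37.2 on Day 10 (22.7 to 72.5) and 24.2 on Day 12 (12.2 to 35.0), a net change of -2.08 ± 0.19 (adjusted p = 5.79e-11). The falls of ZNF135 (-1.61 ± 0.19), ZNF304 (-1.48 ± 0.14) and ZNF671 (-1.12 ± 0.25) were smaller. ZNF446, at the far end of the stretch, had a net change of 0.27 ± 0.15 that did not pass (adjusted p = 0.101).

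The other genes of the stretch moved alike. Of 33 further genes listed there, 31 had only a provisional LOC symbol, 22 fell and none rose from Day 8 to Day 12, and their median log2 fold change was -1.33. In that span 10.4% of all genes and 11.2% of the genes on chromosome 6 fell. From Day 8 to Day 10, 3 ZNF genes and 8 of the others fell, and from Day 10 to Day 12 none of the 9 and 6 of the others. In these intervals 4.20% and 8.39% of all genes fell. Neighbouring zinc finger genes are often near copies, and the counting of reads that match several of them is not given in the sources used here, so counts of single genes in the stretch may share reads.

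On chromosome 3, the 10 ZNF genes from ZNF713 to ZNF48 (16957875-17925593) leaned the other way. From Day 8 to Day 12 5 rose (ZNF688, ZNF629, ZNF771, ZNF768 and ZNF48) and none fell, with a median of 0.95. Among the 28 other genes between them 7 rose and none fell, with a median of 0.26. Over all genes 22.0% rose and 10.4% fell in this span, with a median of 0.09, so the other genes rose about as often as all genes did. Without d12_f_245 and d12_f_271, ZNF688 and ZNF629 were still called, while ZNF768 (0.98 ± 0.11), ZNF771 (0.87 ± 0.23) and ZNF48 (0.93 ± 0.13) were below the fold threshold. ZNF768 had a median of 10.6 CPM on Day 8, 9.44 on Day 10 and 20.7 on Day 12, when its lowest embryo, at 17.8 CPM, lay above the highest earlier one, at 12.4. Both stretches were noticed in these data and were not tested as groups.

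**Figure D5:**
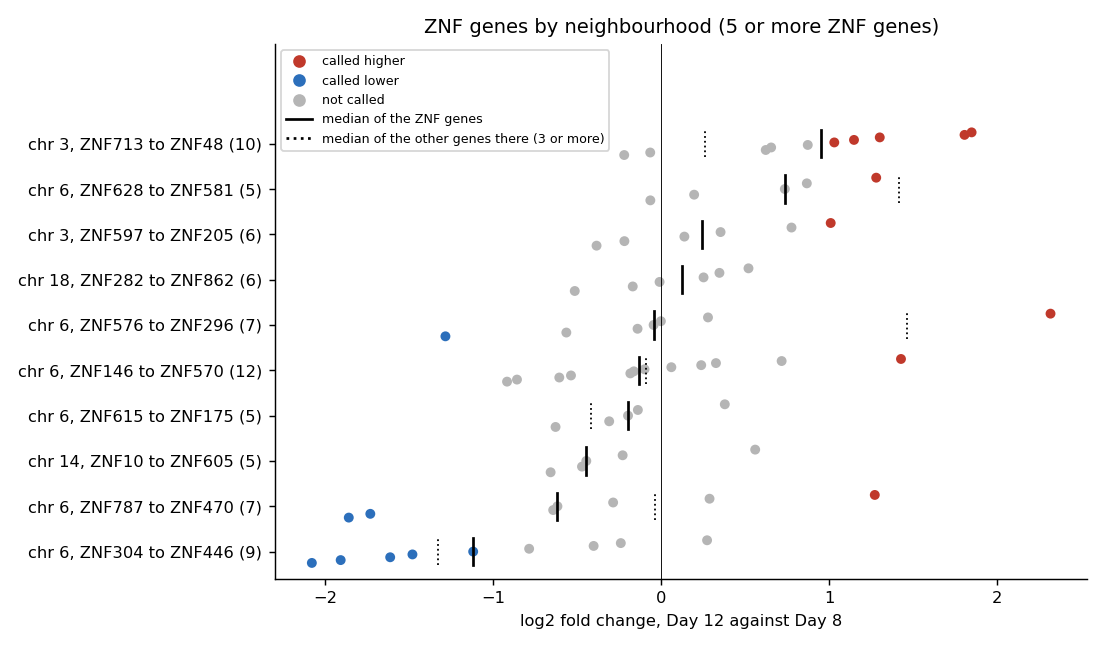
Log2 fold change from Day 8 to Day 12 (horizontal axis) of ZNF genes in the 10 neighbourhoods with 5 or more members, each row named by chromosome, first and last gene and number of members. Points are genes (red called higher, blue called lower, grey not called), solid bars the median of the ZNF genes and dotted bars that of the other genes between them; the row from ZNF304 to ZNF446 lies furthest left with 5 genes called lower, and that from ZNF713 to ZNF48 furthest right with 5 called higher.

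The partners of KRAB zinc finger proteins were read from a list of 25 co-repressor and H3K9 methylation genes, all of which were in the table. By the stricter rule 1 rose from Day 8 to Day 10 (CHD3, a NuRD helicase, 1.31 ± 0.15) and 1 from Day 10 to Day 12 (UHRF1, which guides maintenance of DNA methylation, 1.47 ± 0.13), 4% of the list in each interval beside 9.88% and 14.9% of all genes. At an FDR under 0.05 alone, 2 were higher (8%, against 29.4% of all genes) and 14 lower (56%, against 26.7%) on Day 10 than on Day 8. On Day 12 against Day 10, 10 were higher (40%, against 32.6%) and 5 lower (20%, against 27.1%). TRIM28, the scaffold that KRAB domains bind, went from 444 ± 52.3 CPM (SD, n = 10) to 274 ± 58.1 and 343 ± 38.7. Its changes of -0.70 ± 0.11 (adjusted p = 2.03e-06) and 0.33 ± 0.11 (adjusted p = 0.00883) stayed under the fold threshold. SETDB1, the H3K9 methyltransferase it recruits, went from a mean of 43.9 to 31.5 and 29.9 CPM (net -0.55 ± 0.11), and DNMT1, the maintenance DNA methyltransferase, from 88.7 to 47.4 and 72.6 CPM. Over the whole span 2 genes of the list rose (8%, against 22.0% of all genes) and 1 fell (4%, against 10.4%). The rises were CHD3, from a mean of 26.5 to 53.2 CPM, and UHRF1, from 11.6 to 35.7 CPM. The fall was FAM208A, the TASOR subunit of the HUSH silencing complex, from a mean of 97.8 to 46.0 CPM (-1.09 ± 0.12, adjusted p = 1.02e-09). At an FDR under 0.05 alone, 7 were higher (28%, against 40.1%) and 11 lower (44%, against 33.3%) over this span. The 7 also held CBX5 (0.81 ± 0.12), SUV39H1 (0.66 ± 0.13), MORC2, TRIM24 and EHMT1.

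Zinc finger genes named under other schemes were read over the whole span, in which 22.0% of all genes rose and 10.4% fell. Of 38 ZBTB genes, which join zinc fingers to a BTB domain, 6 rose (15.8%) and 4 fell (10.5%). None of 4 ZKSCAN genes was called in this or the other comparisons. Of 10 ZFP genes 1 rose and 1 fell: the latter was ZFP57, which protects imprinted methylation, at 93.7 to 127 CPM on Day 8, 50.9 to 84.6 on Day 10 and 4.63 to 27.9 on Day 12, with no overlap between any of the days. Of 12 ZSCAN genes 2 rose and 1 fell, the pluripotency gene ZSCAN10, whose mean level of 1.37 CPM on Day 8 had dropped to 0.0689 CPM on Day 12.

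No ZNF gene was called between female and male embryos on any day at an FDR under 0.05 in the quasi-likelihood test, with 214, 210 and 216 of them tested on Days 8, 10 and 12. Over all genes 0.658%, 0.223% and 0.123% were called. The smallest adjusted p among ZNF genes was 0.411 on Day 8, 1 on Day 10 and 0.198 on Day 12. At an unadjusted p under 0.05 there were 8 on Day 8 (3.74%, against 4.59% of all genes), 6 on Day 10 (2.86%, against 2.36%) and 44 on Day 12 (20.4%, against 22.7%). Of the 44, 14 were higher in female and 30 in male embryos, where 1497 and 1278 of all genes were. Without d12_f_245 and d12_f_271 the Day 12 number was 13 (6.02%, against 7.25% of all genes), 2 of them higher in females and 11 in males.

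The Day 12 difference with the smallest p-value was that of ZNF146, which encodes zinc fingers without a KRAB domain. In counts normalised within that day it was at 32.5 to 72.2 CPM in the 5 females and at 76.6 to 102 CPM in the 5 males, without overlap (female minus male log2 fold change -0.81 ± 0.22, adjusted p = 0.198 in the quasi-likelihood test). It was called on Day 12 by the robust GLM of edgeR, the method named by the study (adjusted p = 0.0316), and by DESeq2 (adjusted p = 0.0426). The robust GLM also called ZNF106 (adjusted p = 0.0488), at 31.4 to 100 CPM in females and 101 to 115 CPM in males. The summed level of all ZNF genes on Day 12 was lower in every female than in every male embryo by TMM-scaled CPM, as the plot of summed levels shows. As a share of each embryo's counts, with no TMM factor, the sexes overlapped, at 0.277% to 0.327% in females and 0.319% to 0.363% in males. On the TMM scale the 3 female embryos other than d12_f_245 and d12_f_271 were at 2912 to 3060 CPM.

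The 9 X-linked ZNF genes (ZNF674, ZNF41, ZNF81, ZNF182, ZNF711, ZNF280C, ZNF75D, ZNF449 and ZNF185) were not called between the sexes on any day on which they were listed. ZNF449 came nearest on Day 8, at 12.9 ± 2.40 CPM in females and 9.65 ± 0.834 CPM in males (SD, n = 5, log2 fold change 0.43 ± 0.14, edgeR adjusted p = 0.530). On Day 10 it was at 12.5 ± 2.58 and 10.5 ± 3.07 CPM, and on Day 12 at 11.4 ± 3.67 and 9.17 ± 2.13. Some X-linked genes had higher means in males without being called, such as ZNF41 on Day 8 (-0.75 ± 0.34) and ZNF674 on Day 10 (-0.51 ± 0.21). On Day 8 every listed X-linked gene but ZNF41 and ZNF280C had a female minus male log2 fold change above 0. On Day 10 every listed X-linked gene but ZNF449 had a female minus male log2 fold change below 0, and on Day 12 both signs were present. ZNF75D, at 33.5 ± 2.86 and 31.3 ± 3.96 CPM on Day 8 and 27.4 ± 2.72 and 27.7 ± 1.87 on Day 10, differed by less than the spread between embryos. On Day 12 it was at 37.7 ± 5.55 CPM in females and 31.9 ± 2.72 CPM in males, a log2 difference of 0.24 ± 0.14 (edgeR adjusted p = 0.294). A test of whether the sex difference itself differed between days called no ZNF gene. At an unadjusted p under 0.05 it gave 2 for Day 10 against Day 8 (0.905%, against 0.763% of all genes), 38 for Day 12 against Day 10 (17.2%, against 18.9%) and 46 for Day 12 against Day 8 (20.8%, against 21.8%).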

How the data were processed

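The authors extracted RNA and DNA from single embryos, typed the sex from DNA, prepared stranded mRNA libraries, trimmed the reads, mapped them to Sscrofa11.1 and removed genes of low level. The deposited tables, 1 of all embryos and 1 for each day, hold raw read counts by NCBI gene without normalization. The aligner and the counting tool are not given in the sources used here. Every gene of the first table had at least 0.5 CPM in 4 embryos. All 13103 identifiers matched the annotation of that assembly, and all columns were used. Total counts ran from 6068212 to 34002508 per embryo. Embryos that shared day and sex formed 60 pairs, in which the chi-square per degree of freedom was at least 7.66, so each library counted as its own embryo.

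CPM used TMM factors. Days were compared in 1 fit of all 30 embryos and sexes in the table of their day, with edgeR 4.0.16 quasi-likelihood tests (R 4.3.3) and Benjamini-Hochberg adjustment over all genes of the table. The robust GLM of edgeR, which the study used, served here as an alternative. SE is the log2 fold change over the square root of F. The fit was tested on simulated data. Named genes were the 8 largest rises and falls called in each interval, the 4 largest over the whole span, X-linked and most abundant members, genes called in opposite directions and the co-repressor list. The co-repressor list was planned in full, but only some of its genes are given with values above. Others were named after their values were seen, as were the neighbourhoods (gaps of at most 500 kb). The members and lists were chosen with earlier results of these data known. Protein domains were planned as a grouping but protein sequences were not used here.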

Additional observations from a re-analysis of the deposited data

Results flagged for a closer look

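In 90 groups of 10 embryos of 1 day, each holding 1 named ZNF gene or the summed level, 10 had an embryo far from the others of its day by Dixon's criterion. For independent values with a normal spread, chance gives about 1 in 20 groups. The same 10 embryos recur in all groups of a day, so that rate need not hold here and no excess is read from the 10. ZNF516 was set apart on every day: by the Day 8 male embryo d08_m_103 at 1.18 CPM (next embryo 0.371), by the Day 10 male d10_m_453 at 4.52 CPM (next 2.37) and by the Day 12 female d12_f_245 at 6.37 CPM (next 3.31). The Day 12 female d12_f_271 stood above its day in ZNF296 at 5.22 CPM (next 3.34), in ZNF703 at 8.04 CPM (next 4.70) and in ZNF706 at 109.3 CPM (next 80.2). Embryo d12_f_245 held 4.34 CPM of ZNF641 (next 2.30). The Day 12 male d12_m_249 held 10.2 CPM of ZNF185 (next 6.06), and the male d12_m_307 only 0.619 CPM of ZNF672 (next 1.64). The Day 10 female d10_f_336 held 183 CPM of ZNF207, below the next lowest at 211.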

How the results depend on the processing

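Tested against a log2 fold change of 1, 0 rose and 4 fell from Day 8 to Day 10, 6 rose and 1 fell from Day 10 to Day 12, and 9 rose and 5 fell over the whole span. At an FDR under 0.05 with no minimum fold change the numbers were 25 and 87, 79 and 27, and 68 and 75. In female embryos only, 3 rose and 6 fell in the first interval, 16 rose and 2 fell in the second, and 23 rose and 20 fell over the whole span. In male embryos only, the numbers were 3 and 6, 10 and 2, and 17 and 10. These fits change the sex and the number of embryos together. Leaving out 1 embryo at a time gave 5 to 7 rises and 9 to 11 falls, 23 to 29 rises and 2 to 3 falls, and 29 to 35 rises and 17 to 19 falls, and between the sexes 0 on each day. On Day 12 the robust GLM called 2 ZNF genes between the sexes and DESeq2 1. Apart from the rule of an FDR under 0.05, no share over all genes is given for these fits. The same holds for the day comparisons without d12_f_245 and d12_f_271. These numbers alone therefore do not show whether ZNF genes or all genes changed with the setting.

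Scaling by library size alone moved the median of all genes by -0.18 and 0.20 in the consecutive intervals, so that the ZNF medians became -0.39 and 0.36. Less the median of all genes, the ZNF medians were -0.25 and 0.13 before and -0.24 and 0.12 after. The summed level became 3539 CPM on Day 8 and 2666 CPM on Day 10, and on Day 12 the sexes overlapped. With gaps of at most 250 kb in place of 500 kb, the neighbourhood of ZNF304 kept 3 members, 3 of them lower, and ZNF713 stood alone, with 0 higher. ZNF713 was not among the 5 genes of its stretch that rose from Day 8 to Day 12. How those 5 were grouped at the smaller gap is not given here. Without d12_f_245 and d12_f_271, an alternative chosen after seeing the data like the gaps, 23 of 31 calls from Day 10 to Day 12 and 38 of 50 over the whole span were kept, and none turned. Of 350 alternative values for the genes named by rule, 34 no longer passed, 15 of them in the test against a log2 fold change of 1, and none reversed. No paired analysis was possible because each embryo has a number of its own and the labels do not name its gilt. Genes at few reads per embryo, such as ZNF416, are limited by counting error.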
